A study of Saccharomyces cerevisiae with 8 samples.

Results

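Transcripts of 10 genes of glycogen synthesis and breakdown were followed in a control and an L-UBB+1 strain of the yeast *Saccharomyces cerevisiae*, out of 5444 genes measured. The 10 genes were chosen by name from the pathway, and each was measured by 1 probe set: *GLG1*, *GLG2*, *GSY1*, *GSY2* and *GLC3* of chain synthesis, *GPH1* and *GDB1* of breakdown, *PGM2* and *UGP1* of precursor supply, and *GAC1* of regulation. Both strains were derived from CEN.PK113-11C, a haploid laboratory strain that lacks functional *HIS3* and *URA3*, and were grown in shaken cultures on glucose medium at 30 degrees Celsius. The control strain carried the empty p413 TEF plasmid, and the L-UBB+1 strain carried p413 TEF-UBB+1, from which UBB+1, a frameshifted form of human ubiquitin, is made constitutively at a low level. Samples were taken in exponential phase (EX) and in stationary phase on day 6 (D6), with 2 biological replicates for each strain and phase. The study counts D6 as 6 days after exhaustion of the carbon source. In all, 8 Affymetrix arrays of whole-culture RNA were compared. All levels are log2 expression values as deposited, and the small number of arrays limits their precision.

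Glycogen is the branched glucose store of yeast. The glycogenins Glg1 and Glg2 start a chain by adding glucose to themselves, the synthases Gsy1 and Gsy2 extend it from UDP-glucose, and Glc3 adds the branches. Phosphorylase (Gph1) releases glucose 1-phosphate from the chain ends and Gdb1 removes the branches, while Pgm2 and Ugp1 lead from glucose 6-phosphate to UDP-glucose. Yeast is known to build up glycogen as glucose runs low and to draw on it later.

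The labels were first set against marker genes. The mean log2 level of 16 markers of stationary phase or of growth without glucose lay between 10.7 and 11.1 on the 4 L-UBB+1 arrays, between 7.89 and 8.02 on the control EX arrays and between 7.52 and 7.64 on the control D6 arrays. The control D6 arrays thus showed no rise of these markers over EX, while the L-UBB+1 EX arrays already carried them, with a mean log2 level of 11.80 for the stationary phase gene *SPG1* against 5.98 at control D6. Of the 16 markers, 11 were called higher in the L-UBB+1 strain at each phase and 1 lower at D6, and of 10 markers of growth on glucose 8 were called lower at each phase. Between L-UBB+1 EX replicate 1 and D6 replicate 2 the SD of the log2 difference over genes was 0.086, and between EX replicate 2 and D6 replicate 1 it was 0.143, both under that of any replicate pair (0.202 to 0.287). No probe set was named for UBB+1, so the transgene could not check the labels, and the part of growth state, or of labels exchanged between control D6 and L-UBB+1 EX, in the differences that follow was not tested. Mating-type markers also differed between the strains. Of 5 a-specific genes, *MFA2*, *STE2*, *BAR1* and *AGA2* were called lower in the L-UBB+1 strain at both phases (5.66-fold at EX and 7.55-fold at D6 for the receptor gene *STE2*) and *MFA1* was not called, and of 4 α-specific genes *SAG1* alone was called, higher at EX, and none at D6. On the control arrays the mean log2 level was 9.28 to 9.57 for the 5 a-specific genes and 6.36 to 6.58 for the 4 α-specific genes. On the L-UBB+1 arrays it was 7.74 to 7.93 and 7.09 to 7.16, beside lower quartiles of 7.48 to 7.56 over all arrays. The methods give the strain as MATα, which levels of different probe sets do not settle, and the mating type was not tested.

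The main question was how the strains differed in glycogen genes at each phase. Genes were called where the limma p, adjusted by Benjamini-Hochberg over all 5444 genes, was under 0.001 and the fold change at least 1 on the log2 scale in either direction. At EX, *GLG2* and *GAC1* were called higher in the L-UBB+1 strain and *GSY2* and *UGP1* lower. At D6, *GLG2*, *GLC3* and *GAC1* were called higher and *UGP1* lower. The 2 higher and 2 lower calls among the 10 genes at EX stand beside 17.2% of all genes called higher and 17.1% called lower, and the 3 and 1 at D6 beside 17.9% and 18.5%. The median log2 fold change of the 10 genes was -0.85 at EX and 0.43 at D6, beside 0.0032 and -0.0075 over all genes. At an adjusted p under 0.05 with the same fold minimum, 8 of the 10 passed at EX and 4 at D6 (37.3% and 39.5% of all genes), and with no fold minimum 9 and 7 passed (74.7% and 76.0%). With so many genes called, the counts give no result particular to the glycogen genes, and the results lie in the single genes and their directions. Where the arrays of the strains did not overlap, this is given for single genes, without the share over all genes.

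**Figure D1:**
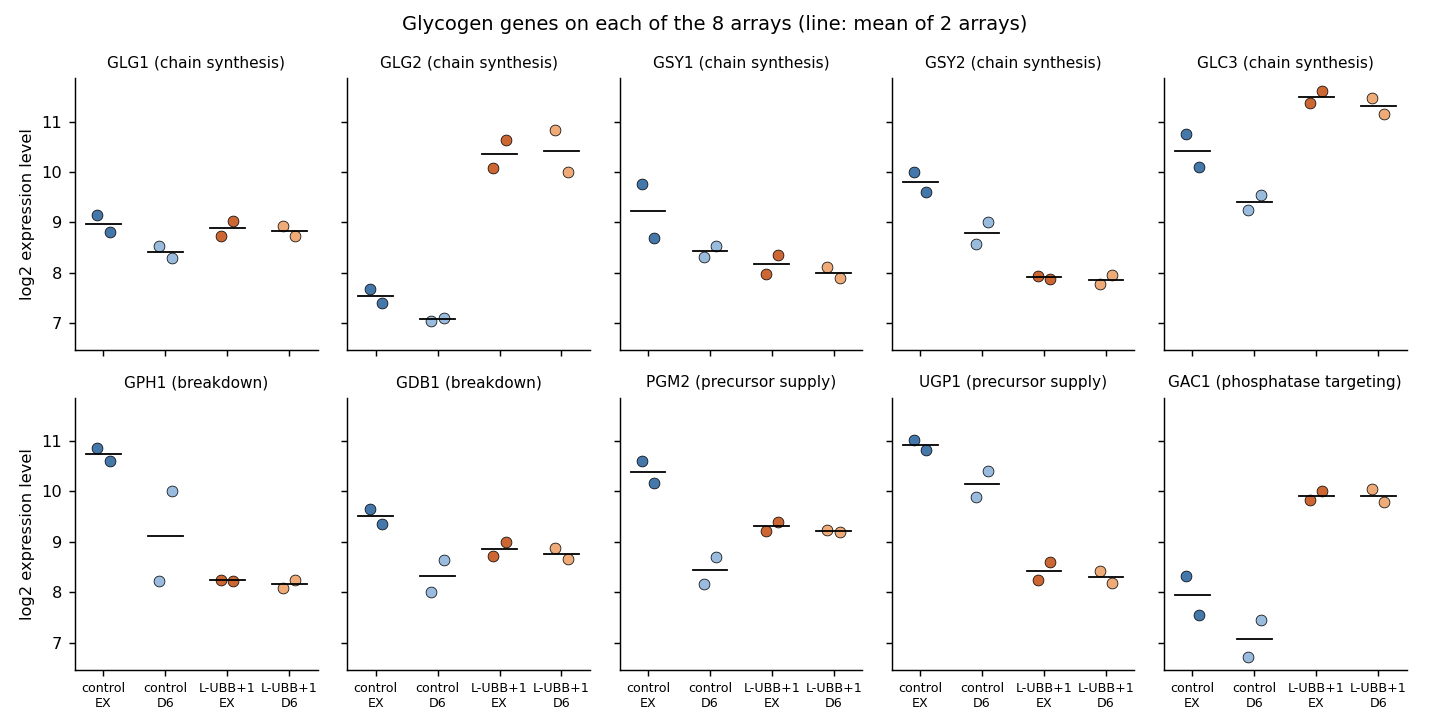
Log2 expression level of the 10 glycogen genes on each of the 8 arrays, with a point for each array and a line for the mean of the 2 arrays of a group. *GLG2*, *GLC3* and *GAC1* had their highest means in the L-UBB+1 strain, *GSY1*, *GSY2*, *GPH1* and *UGP1* had their 2 highest in the control strain, and *GLG1*, *GDB1* and *PGM2* were highest at control EX and lowest at control D6.

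The glycogenin genes, a pair of paralogs, had different values. The log2 level of *GLG2* (YJL137C) was 7.69 and 7.39 at control EX, 7.04 and 7.11 at control D6, 10.09 and 10.63 at L-UBB+1 EX, and 10.84 and 10.01 at L-UBB+1 D6. Every L-UBB+1 array lay above every control array. The control D6 levels were under the lower quartile of their arrays (7.55 and 7.56), as was the level on control EX replicate 2 (7.55). *GLG2* was 7.06-fold higher than in the control at EX (2.82 on the log2 scale, SE 0.29, limma adjusted p = 7.0e-05, 2 arrays in each group) and 10.2-fold higher at D6 (3.35, SE 0.29, limma adjusted p = 2.9e-05). Without control EX replicate 2 the EX value was 2.67, with an adjusted p of 0.0012, and was not called. *GLG1* (YKR058W) had log2 levels of 9.14 and 8.82 at control EX, 8.52 and 8.29 at control D6, 8.74 and 9.02 at L-UBB+1 EX, and 8.92 and 8.73 at L-UBB+1 D6. Its arrays overlapped between the strains at EX, where the difference was -0.098 on the log2 scale (95% interval -0.47 to 0.28), and all L-UBB+1 arrays were above the control arrays at D6, where it was 0.41 (0.038 to 0.79) and not called. Whether the paralogs differed from each other in their change was not tested.

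Of the synthase genes, *GSY2* fell in the L-UBB+1 strain at EX. The log2 level of *GSY2* (YLR258W), which encodes the main glycogen synthase, was 9.99 and 9.60 at control EX, 8.57 and 9.01 at control D6, 7.93 and 7.88 at L-UBB+1 EX, and 7.77 and 7.95 at L-UBB+1 D6. All L-UBB+1 arrays were below all control arrays. It fell by 1.89 on the log2 scale at EX (SE 0.18, limma adjusted p = 5.5e-05), and at D6 the difference of -0.94 passed neither threshold (adjusted p = 0.0022). *GSY1* (YFR015C), the minor synthase gene, had log2 levels of 9.76 and 8.69 at control EX, 8.30 and 8.54 at control D6, 7.98 and 8.35 at L-UBB+1 EX, and 8.11 and 7.89 at L-UBB+1 D6. The L-UBB+1 arrays were below the control arrays of the same phase, but *GSY1* was not called at EX (-1.06, 95% interval -1.81 to -0.31) or at D6 (-0.42, -1.17 to 0.32). The control EX replicates stood far apart, and the EX value was -0.52 without replicate 1 and -1.59 without replicate 2, where it was called (limma adjusted p = 0.00092).

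*GLC3* (YEL011W), the branching enzyme gene, had its higher levels in the L-UBB+1 strain. Its log2 level was 10.74 and 10.10 at control EX, 9.25 and 9.54 at control D6, 11.36 and 11.61 at L-UBB+1 EX, and 11.47 and 11.16 at L-UBB+1 D6. All L-UBB+1 arrays lay above all control arrays. At D6 *GLC3* was 3.77-fold higher (SE 0.23 on the log2 scale, limma adjusted p = 0.00016), and at EX the difference of 1.07 on the log2 scale had an adjusted p of 0.0038 and was not called. The D6 call was lost without control D6 replicate 1 (1.77 on the log2 scale, adjusted p = 0.0025) or replicate 2 (2.06, adjusted p = 0.0013), beside 1.92 with all arrays.

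Neither breakdown gene was called at either phase. *GPH1* (YPR160W), the phosphorylase gene, had log2 levels of 10.86 and 10.61 at control EX, 8.22 and 10.005 at control D6, 8.24 and 8.23 at L-UBB+1 EX, and 8.09 and 8.24 at L-UBB+1 D6. The L-UBB+1 arrays were below both control arrays at EX and overlapped with them at D6, where control replicate 1 was as low as the L-UBB+1 arrays. The difference was -2.50 on the log2 scale at EX (SE 0.48, limma adjusted p = 0.0022) and -0.95 at D6 (95% interval -2.08 to 0.19). The control D6 replicates differed by 3.46-fold, the widest replicate gap among the 10 genes, and in the fit this gap sets the error of *GPH1* in every comparison. Without control D6 replicate 1, *GPH1* was called lower at EX (adjusted p = 2.3e-05) and at D6 (-1.84, adjusted p = 0.00015). Without replicate 2 it was called lower at EX, with the same value, and the D6 difference was -0.052. *GDB1* (YPR184W), the debranching enzyme gene, had log2 levels of 9.66 and 9.35 at control EX, 8.01 and 8.64 at control D6, 8.72 and 9.01 at L-UBB+1 EX, and 8.87 and 8.66 at L-UBB+1 D6. The L-UBB+1 arrays were below the control arrays at EX (-0.64 on the log2 scale, 95% interval -1.16 to -0.12) and above them at D6 (0.44, -0.081 to 0.96).

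Of the genes of precursor supply, *UGP1* fell in the L-UBB+1 strain at both phases. *UGP1* (YKL035W), whose product makes UDP-glucose, had log2 levels of 11.02 and 10.82 at control EX, 9.90 and 10.42 at control D6, 8.25 and 8.59 at L-UBB+1 EX, and 8.42 and 8.18 at L-UBB+1 D6. All L-UBB+1 arrays were below all control arrays. It fell by 2.50 on the log2 scale at EX (SE 0.20, limma adjusted p = 2.3e-05) and by 1.86 at D6 (SE 0.20, limma adjusted p = 9.4e-05), and leaving out any 1 array kept both calls. *PGM2* (YMR105C), which encodes the major phosphoglucomutase, had log2 levels of 10.61 and 10.17 at control EX, 8.17 and 8.70 at control D6, 9.22 and 9.40 at L-UBB+1 EX, and 9.24 and 9.19 at L-UBB+1 D6. The L-UBB+1 arrays lay between the control EX and the control D6 arrays. The difference was -1.08 on the log2 scale at EX (limma adjusted p = 0.0021) and 0.78 at D6 (0.0098), and neither was called.

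*GAC1* (YOR178C) encodes the subunit that brings the type 1 phosphatase Glc7 to glycogen synthase, which is active when dephosphorylated. Its log2 level was 8.33 and 7.54 at control EX, 6.71 and 7.45 at control D6, 9.83 and 10.01 at L-UBB+1 EX, and 10.05 and 9.79 at L-UBB+1 D6. All L-UBB+1 arrays were above all control arrays. The control D6 levels were under the lower quartile of their arrays (7.55 and 7.56), as was the level on control EX replicate 2 (7.55). *GAC1* was 3.95-fold higher at EX (SE 0.31 on the log2 scale, limma adjusted p = 0.00069) and 7.15-fold higher at D6 (SE 0.31, limma adjusted p = 9.6e-05). The EX call was lost without control EX replicate 2 (1.59 on the log2 scale, adjusted p = 0.0047), without L-UBB+1 EX replicate 1 (0.0031) and without L-UBB+1 EX replicate 2 (0.004635). For all of these genes, a change in the share of cells with the transcript and a change in its amount per cell cannot be told apart in RNA from a whole culture.

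**Figure D2:**
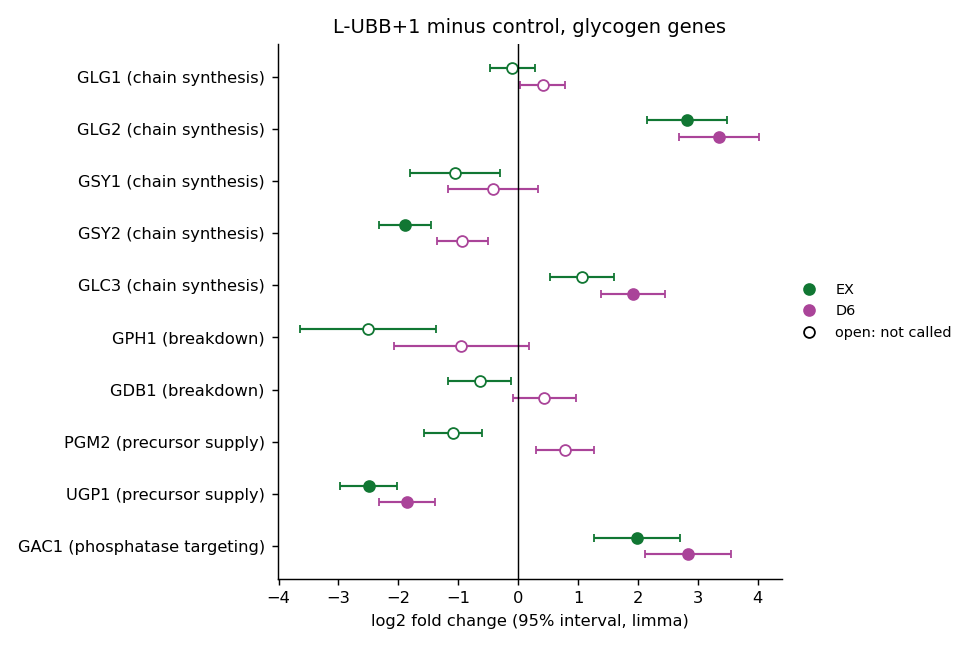
Log2 fold change of L-UBB+1 over control for the 10 glycogen genes at EX and at D6, with 95% intervals from limma, filled points for called genes and open points for the others. The D6 value of every gene lies to the right of its EX value, by 0.51 for *GLG1* up to 1.86 for *PGM2*, a difference that was called for none of the 10.

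The near-identical L-UBB+1 arrays bear on these calls. Without L-UBB+1 EX replicate 2 and D6 replicate 1, *GLG2* and *UGP1* were called at EX and *GLG2* at D6, and without EX replicate 1 and D6 replicate 2 the same genes were called. Both settings were chosen after seeing the data and leave 2 fewer arrays for the error. Each leaves 1 array in each L-UBB+1 group, so the replicate spread comes from the control arrays alone. The calls under these settings are therefore not replicated within the L-UBB+1 strain.

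Synthesis and breakdown genes were then set side by side. For each array the deviation of each gene from its own mean over the 8 arrays was averaged over the 5 synthesis genes and over the 2 breakdown genes, as a description with no test. The breakdown genes had mean deviations of 1.30 and 1.02 on the control EX arrays, -0.85 and 0.36 on the control D6 arrays, and between -0.51 and -0.34 on the 4 L-UBB+1 arrays. The synthesis genes had 0.40 and -0.14 at control EX, -0.72 and -0.56 at control D6, and between 0.082 and 0.44 on the L-UBB+1 arrays. From control to L-UBB+1, synthesis moved over breakdown by 1.74 on the log2 scale at EX and by 1.12 at D6, and the D6 value was 1.64 without control D6 replicate 1 and 0.59 without replicate 2. The synthesis mean joins opposite signs, since *GLG2* and *GLC3* were higher on the L-UBB+1 arrays and *GSY2* lower. Its largest single difference was that of *GLG2* (2.82 at EX and 3.35 at D6). The breakdown mean rests on 2 genes, with -2.50 for *GPH1* and -0.64 for *GDB1* at EX. At D6 it joins opposite signs, -0.95 for *GPH1* and 0.44 for *GDB1*.

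The order of the 4 group means gave 3 patterns that cut across these roles. *GLG2*, *GLC3* and *GAC1* had both L-UBB+1 means above both control means, with control D6 lowest and 2.09 to 3.35 on the log2 scale between the highest and the lowest mean. *GSY1*, *GSY2*, *GPH1* and *UGP1* descended from control EX through control D6 to L-UBB+1 EX and then L-UBB+1 D6, over 1.23 to 2.62. *GLG1*, *GDB1* and *PGM2* descended from control EX through the L-UBB+1 groups to control D6, over 0.57 to 1.95. In all 3 patterns the L-UBB+1 EX and D6 arrays were neighbours in the order and overlapped.

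**Figure D3:**
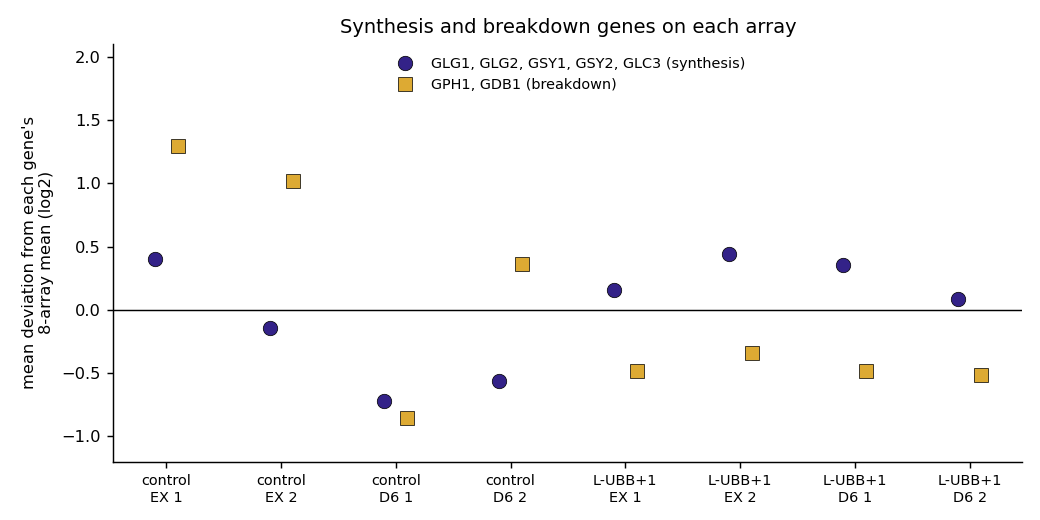
Mean deviation on the log2 scale of the 5 synthesis genes (circles) and the 2 breakdown genes (squares) from each gene's own mean over the 8 arrays, shown for every array. Breakdown genes lie above synthesis genes on the control EX arrays and on control D6 replicate 2, and below them on control D6 replicate 1 and on the 4 L-UBB+1 arrays.

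The next question was how D6 differed from EX within a strain, in comparisons that share arrays with those above. In the control strain all 10 glycogen genes had lower levels at D6, with no overlap between the arrays of the phases, as had 33.5% of all genes. By limma none was called (0% of all genes), and 9 passed at an unadjusted p under 0.05 (27.2% of all genes). The methods' t-test passed 1 at that unadjusted threshold (11.6% of all genes). The methods name this t-test for strain differences in general and not in their section on the arrays. At an adjusted p under 0.05, 3 of the 10 were lower, against 1.03% of all genes, and all 3 by at least 1 on the log2 scale, against 0.312%. These were *PGM2* (-1.95, SE 0.21, limma adjusted p = 0.031), *GDB1* (-1.18, SE 0.22, 0.043) and *GSY2* (-1.001, SE 0.18, 0.043). *GPH1* had a difference of -1.62 (95% interval -2.76 to -0.49), which was -0.73 without control D6 replicate 1 and -2.52 without replicate 2. The smallest difference was that of *GLG2* (-0.46, -1.13 to 0.21). *PGM2*, *GDB1* and *GSY2* no longer passed without control EX replicate 1 (adjusted p of 0.20, 0.31 and 0.30), without control D6 replicate 1 (0.26 for each), without L-UBB+1 EX replicate 1 or 2 (0.065, 0.066 and 0.066) or with only the control arrays in the fit (0.081 for each), and *GDB1* did not without control EX replicate 2 (0.053). Of the 16 stationary phase markers, 13 were lower and 3 higher at control D6 than at control EX, with a median of -0.16 on the log2 scale and 0 called.

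In the L-UBB+1 strain the EX and D6 arrays overlapped for all 10 genes, and the share of all genes with such overlap is not given here. The differences ran from -0.18 on the log2 scale for *GLC3* to 0.066 for *GLG2*, with 0 genes called by limma (0% of all genes) and 0 of the 10 at an unadjusted p under 0.05 by limma (0.184% of all genes) or by the methods' t-test (2.20% of all genes). The intervals reached from -1.202 to 1.06 for *GPH1* and from -0.48 to 0.38 for *GSY2*, so the comparison does not show that the phases were alike. They use the spread of all 4 groups, and *GPH1* had an SD of 1.26 at control D6 against 0.0028 and 0.11 in the L-UBB+1 groups. Over genes, L-UBB+1 arrays were nearer crosswise between phases (SD 0.086 and 0.143) than between replicates (0.249 and 0.287). Replicate spread is therefore a poor measure of error in this comparison.

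**Figure D4:**
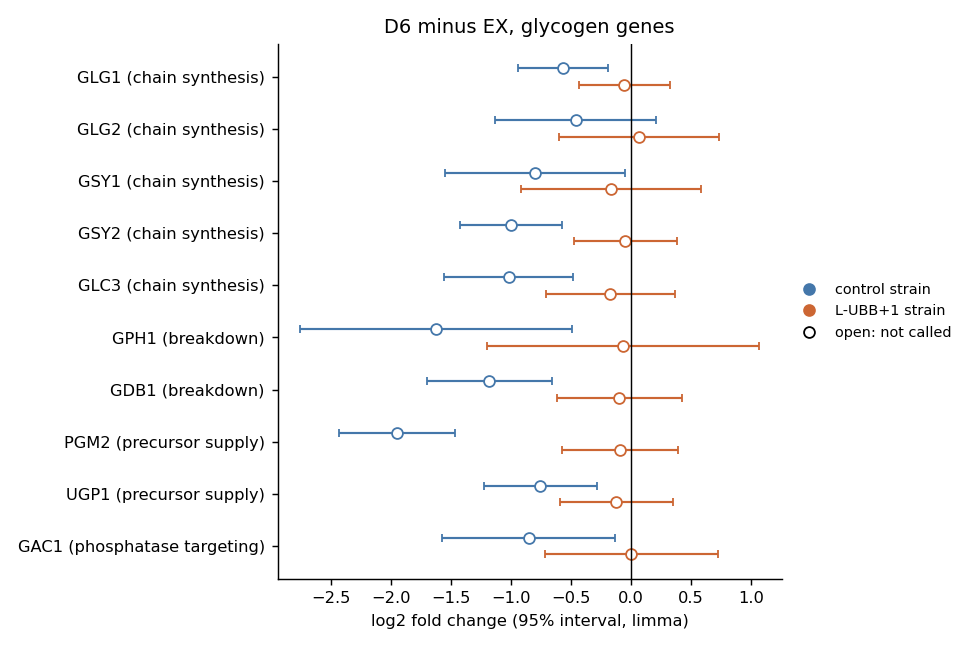
Log2 difference of D6 over EX for the 10 glycogen genes in the control and the L-UBB+1 strain, with 95% intervals from limma and open points for genes that were not called. All control values are below 0, from -0.46 to -1.95, and the L-UBB+1 values lie between -0.18 and 0.066.

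A change in the strain effect from EX to D6 was tested as an interaction. The interaction equals the L-UBB+1 phase difference minus the control phase difference, so it is not independent of the control falls given above. It was above 0 for all 10 genes, with a median of 0.85 on the log2 scale against -0.0055 over all genes. None was called by limma (0% of all genes), and 4 passed at an unadjusted p under 0.05 (15.9% of all genes). The largest was that of *PGM2* (1.86, 95% interval 1.17 to 2.54, limma adjusted p = 0.27). *GPH1* followed with 1.55 (-0.047 to 3.16, adjusted p = 0.33), and *GDB1* with 1.08 (0.35 to 1.82, adjusted p = 0.27). The smallest adjusted p of any gene in this comparison was 0.275.

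Another 19 genes that feed or regulate glycogen metabolism were listed by role, and all were measured. Of these, 7 were called higher and 5 lower in the L-UBB+1 strain at EX, and 8 higher and 2 lower at D6, with median log2 fold changes of 0.057 and 0.33. The shares over all genes were 17.2% higher with 17.1% lower for EX and 17.9% with 18.5% for D6, and the medians 0.0032 and -0.0075. Those that supply glucose phosphates were lower. *HXK1*, *HXK2* and *GLK1*, whose products phosphorylate glucose, were 5.45-fold, 4.79-fold and 4.03-fold lower at EX, and *PGM1*, which encodes the minor phosphoglucomutase, was 4.01-fold lower. At D6 *HXK2* and *PGM1* were called lower (4.41-fold and 3.97-fold), and *HXK1* and *GLK1* were not called (-1.03 and -0.98 on the log2 scale). The lowest control and the highest L-UBB+1 log2 level were 9.81 and 9.47 for *HXK1* and 10.92 and 8.89 for *HXK2*. They were 9.89 and 9.25 for *GLK1*, and 8.65 and 6.78 for *PGM1*.

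Regulators of the phosphatase Glc7 held 4 of the 7 rises at EX and 5 of the 8 at D6. The list of 19 holds many such regulators (*GLC8*, *PIG1*, *PIG2*, *GIP2*, *SDS22*, *REG1* and *REG2*), so these counts depend on how it was chosen. Over all genes, 17.2% met the same rule upward for EX and 17.9% for D6. Whether Glc7 regulators rose more often than other genes was not tested. *GIP2*, which encodes a putative Glc7 subunit, was 6.49-fold higher at EX and 9.61-fold at D6 (SE 0.20 on the log2 scale, limma adjusted p = 1.4e-05 and 6.3e-06). *GLC8*, which encodes a Glc7 activator, was 2.91-fold higher at EX and 4.27-fold at D6. *PIG2*, for another putative Glc7 subunit, was called at D6 (6.45-fold) and not at EX (1.81 on the log2 scale, adjusted p = 0.0015). *REG1* and *REG2*, for Glc7 subunits of glucose repression, were 3.69-fold and 4.28-fold higher at EX and 3.51-fold and 7.36-fold at D6. *GLC7* itself was not called (-0.23 at EX and -0.16 at D6), nor was *PIG1* (0.057 and 0.093). *SDS22*, for a further Glc7 regulator, fell by 1.55 on the log2 scale at EX and was not called at D6 (-0.83).

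On the side of Pho85, a kinase that phosphorylates glycogen synthase, 1 of 5 genes was called. It was called higher at both phases, beside 17.2% of all genes at EX and 17.9% at D6. The cyclin gene *PCL10* was 4.54-fold higher at EX and 4.69-fold at D6 (SE 0.19 on the log2 scale, limma adjusted p = 3.5e-05 and 3.1e-05). *PCL8*, whose product acts with Pho85 on synthase as Pcl10 does, had log2 differences of 0.28 and 0.65, and *PHO85* of -0.0069 and 0.33. The cyclin gene *PCL6* was lower, by -0.92 at EX (limma adjusted p = 0.00027, short of the fold minimum) and -0.51 at D6. *PCL7*, for a further cyclin, had -0.13 and 0.27. Around breakdown, *IGD1*, which encodes an inhibitor of the debranching enzyme, was 4.38-fold higher at EX and 9.38-fold at D6 (SE 0.17, limma adjusted p = 2.2e-05 and 3.8e-06). Its L-UBB+1 arrays had log2 levels of 11.08 to 11.22 and its control arrays of 7.76 to 9.25. *SGA1*, the glucoamylase gene of sporulation, was 2.17-fold and 2.12-fold higher.

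**Figure D5:**
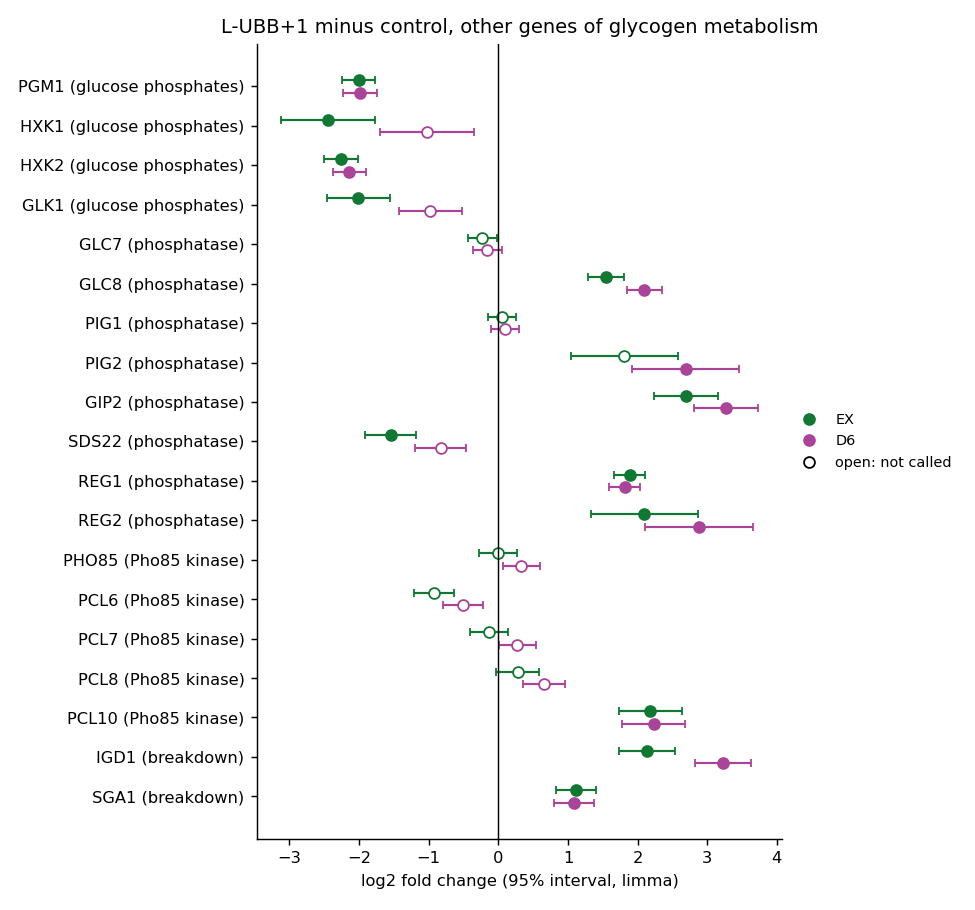
Log2 fold change of L-UBB+1 over control at EX and at D6 for 19 other genes of glycogen metabolism, ordered by role, with 95% intervals from limma and filled points for called genes. The 4 genes of glucose phosphate supply lie below 0 at both phases, and *GIP2*, *GLC8*, *REG1*, *REG2*, *PCL10*, *IGD1* and *SGA1* are called above 0 at both.

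For *GSY2*, *GPH1* and *PGM2*, the genes with the nearest profiles were found by the root mean square difference of log2 values over the 8 arrays, after centring each gene on its own mean. Nearest to *GSY2* were *GLK1* (0.121), the DNA photolyase gene *PHR1* (0.194) and the aldose reductase gene *GRE3* (0.210). Nearest to *GPH1* were *HXK1* (0.264), *GPM2*, which encodes a phosphoglycerate mutase homologue (0.329), and *GLK1* (0.384). Nearest to *PGM2* were *EGO4* (0.248), the cytosolic catalase gene *CTT1* (0.260) and *GDB1* (0.281). The arrays fall into 4 groups, so these distances mostly compare group means.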

How the data were processed

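Biotin-labelled RNA, prepared from 100 ng of total RNA per culture, was hybridized to Affymetrix Yeast Genome 2.0 arrays. The deposited values are log2 expression levels per probe set, which the authors made from CEL files with R and its PIANO package. The submitters' processing notes name R 3.2.3 and the methods a later release; background correction and normalization were not given in the sources used here. Values were used as deposited (array medians 8.34 to 8.41). Of 5705 probe sets, 216 without a gene in the platform annotation were left out. Symbols of 12 were updated through gene IDs, and a gene with several probe sets was represented by the brightest on average. Groups came from sample titles. The 4 group means of each gene were fitted with limma 3.58.1 in R 4.3.3, on 4 residual and 3.26 prior degrees of freedom, by code tested on simulated data. Members, lists and tests were chosen with earlier results of these data known. Named genes were the 10 members and the listed pathway genes called in a strain comparison. The 3 profiles nearest to *GPH1*, *GSY2* and *PGM2* and a few markers were also named. *GLC7*, *PIG1*, *PCL6*, *PCL7*, *PCL8*, *PHO85* and the mating genes were added after their values were seen. Alternatives covered normalization, centring, dim genes, probe set, groups in the fit, prior, thresholds, test, replicate block and left-out arrays.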

Additional observations from a re-analysis of the deposited data

How the results depend on the processing

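Quantile normalization, median centring, leaving out dim genes, fitting only the compared groups, the trend and robust prior and the replicate block each kept the counts of called members within 1.5 times. The choice of probe set could not move a member's fold change, since each member has 1. Same-numbered arrays did not deviate together (correlations from -0.855 to 0.364 between groups), so the numbers do not pair them. With the replicate block, 3 members were called at EX, where *GAC1* was lost (adjusted p = 0.0019), 4 at D6 and 0 in the other comparisons, and *PGM2*, *GDB1* and *GSY2* no longer passed an adjusted p of 0.05 between the control phases (0.096 for each). With a crossed block, chosen after seeing the data, 6 were called at EX, 4 at D6 and 0 in the others. Leaving out 1 array gave 3 to 5 called members at EX, 3 to 4 at D6 and 0 to 0 for the phases and the interaction. Without either pair of near-identical L-UBB+1 arrays, 2 were called at EX and 1 at D6. At an adjusted p under 0.05, 8 passed at EX with the fold minimum and 9 without it, 7 at D6 without it, and 3 between the control phases with or without it. The methods' t-test passed 6 at EX (4 after Benjamini-Hochberg), 4 at D6 (3) and 1 between the control phases (0), beside 64.2% (54.3%), 60.5% (45.3%) and 11.6% (0%) of all genes, and was not run for the interaction. With 1 array left out, synthesis over breakdown ranged from 1.61 to 1.88 at EX, 0.59 to 1.64 at D6, 0.11 to 1.16 between the control phases and -0.12 to 0.13 between the L-UBB+1 phases. Uncalled values near 0 changed sign with 1 array left out. These were *GLG1* at EX (-0.26 to 0.061) and, between the L-UBB+1 phases, *GLG1* (-0.20 to 0.087), *GLG2* (-0.35 to 0.48), *GSY1* (-0.36 to 0.020), *GSY2* (-0.14 to 0.044), *GPH1* (-0.15 to 0.0085), *GDB1* (-0.24 to 0.040), *UGP1* (-0.30 to 0.050) and *GAC1* (-0.13 to 0.13). Without L-UBB+1 EX 1 and D6 2, *GLG1* at EX was 0.045, and without EX 2 and D6 1 the L-UBB+1 phase values were -0.0815 for *GLG2*, 0.022 for *GSY2*, 0.0065 for *GPH1* and -0.040 for *GAC1*. The cause of these changes was not tested. Signal over background was not checked here, and no member was among the dim genes left out. Dim genes were set by the mean over all 8 arrays, so a gene could stay in through the strain where it was high. At control D6, *GLG2* (7.04 and 7.11) and *GAC1* (6.71 and 7.45) lay under the lower quartile of their arrays (7.55 and 7.56). On control EX replicate 2, *GLG2* (7.39) and *GAC1* (7.54) also lay under the lower quartile (7.55). The mean of *GIP2* at control D6 was 6.37. The highest control level was 7.36 for *GIP2*, 7.36 for *REG2*, 7.46 for *PCL10* and 6.95 for *SGA1*. The highest L-UBB+1 level was 6.78 for *PGM1*, 7.33 for *SDS22* and 7.27 for *PCL6*. Lower quartiles were 7.48 to 7.56 over all arrays. The fold changes of these genes therefore start from or end at low levels on those arrays.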
